A study of Mus musculus with 6 samples.

Results

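The excitatory postsynaptic scaffold genes are the genes for the proteins that hold glutamate receptors and their signalling partners in place under the excitatory synapse. They were taken as every probe set annotated to exactly 1 symbol among 10 genes of the PSD-95, SAPAP, Shank and Homer families. The rule found 27 of the 45037 probe sets tested, which read 9 of the 10 genes. No probe set was annotated to Shank2 alone, so Shank2 was not analysed here. Dlgap1 and Homer1 had 6 probe sets each, Dlg1, Dlg2, Dlg4 and Homer2 had 3 each, and Dlg3, Shank3 and Homer3 had 1 each.

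The postsynaptic density is a protein sheet built in layers. Nearest the membrane lie the PSD-95 family proteins, whose PDZ domains bind the tails of NMDA receptors and of AMPA receptor auxiliary subunits. SAPAP proteins, such as the product of Dlgap1, bind the guanylate kinase-like domain of PSD-95 and link it to Shank proteins deeper in the sheet. Shank in turn binds Homer, whose tetramers reach group I metabotropic glutamate receptors and inositol trisphosphate receptors. Homer1 also gives a short splice form, Homer1a, which is induced by neuronal activity and breaks these links because it lacks the coiled coil.

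Total RNA of the brain without its cerebellum was hybridised to 1 Affymetrix array per sample. The knockout group was 3 samples from mice deficient in Gb5, the G protein beta subunit encoded by Gnb5 that partners the R7 RGS proteins. The control group was 3 samples from wild-type mice. All came from littermate cohorts matched for age and sex, no treatment is named, and the labels name no transgene and no restriction of the knockout to a cell type. The sources used here give no strain, no age and no sex for single animals. Arrays are called knockout 1, 2 and 3 and wild type 4, 5 and 6 as numbered in the labels.

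Values are the deposited log2 expression values, on which a difference of 1 is a 2-fold change. Precision is limited by the number of arrays. The targeted gene Gnb5 was read by its brightest probe set. It gave 3.67, 3.00 and 3.56 in knockouts 1 to 3 against 8.79, 8.98 and 9.30 in wild types 4 to 6, which fits the labels. On a dimmer Gnb5 probe set the drop was smaller, with knockouts at 3.83, 3.63 and 3.63 and wild types at 4.90, 4.95 and 4.20. All 10 neuronal markers checked were measured, at a median level percentile of 96.8 among probe sets, which fits brain tissue. They cannot show whether the cerebellum was removed. Some arrays stood apart from their group. Knockout 1 was the highest or lowest of the 6 arrays at 51.7% of all probe sets, against 43.1% for wild type 4 and 25.6% to 28.3% for the other arrays. The X-inactivation transcript Xist, by its brightest probe set, read 10.65, 8.31 and 10.62 in knockouts 1 to 3 and 4.96, 10.81 and 10.70 in wild types 4 to 6, and the Y-linked Eif2s3y read 2.96, 11.28 and 6.97 and 11.26, 6.05 and 4.05. Single arrays thus differed in sex-linked transcripts within both groups. Wild type 4 was low for Xist and high for Eif2s3y. Knockout 2 was high for Eif2s3y, with an Xist value between that of wild type 4 and those of the other arrays. Knockout 3 and wild type 5 had intermediate Eif2s3y values (6.97 and 6.05) beside high Xist values. On a dimmer Eif2s3y probe set these arrays read 3.71 and 3.88, near knockout 1 (4.30) and wild type 6 (3.64). It is unknown whether every array comes from a single animal. Knockout 3 read high for the pituitary transcript Gh (10.62). On the control probe sets, the 3′ end of Gapdh exceeded its 5′ end by 1.16 to 1.30 in the knockouts and by 1.03 to 1.38 in the wild types, and that of Actb by 3.22 to 3.31 and by 3.04 to 3.40.

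None of the 27 scaffold probe sets passed the limma adjusted threshold of 0.05, a level that 0.0266% of all probe sets passed. The smallest adjusted p among them was 0.258. Differences, always knockout minus wild type, ran from -0.44 for a Dlgap1 probe set to 0.36 for a Dlg4 probe set, with a median of 0.01 over the 27 against 0.03 over all probe sets. The 95% interval lay within a 2-fold change in either direction at all 27 and within a 1.5-fold change at 20. At an unadjusted limma p under 0.05 there were 2 of 27 (7.41%), against 14.4% of all probe sets. Of these 1 was higher, where 8.09% of all probe sets were, and 1 lower, where 6.33% were. Of the 27 differences 14 were above 0 (51.9%), against 55.5% of all probe sets. Every knockout array lay beyond every wild-type array at 5 of 27 (18.5%), against 21.5% of all probe sets, which is near the background. It was 1 of 27 with the knockouts above (3.70%), against 12.5%, and 4 of 27 with the knockouts below (14.8%), against 8.95%. With 1 probe set per gene, the brightest, groups did not overlap at 5 of 9 (55.6%), against 25.1% of all genes. In tissue RNA, fewer cells of a type and less RNA per cell cannot be told apart.

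**Figure D1:**
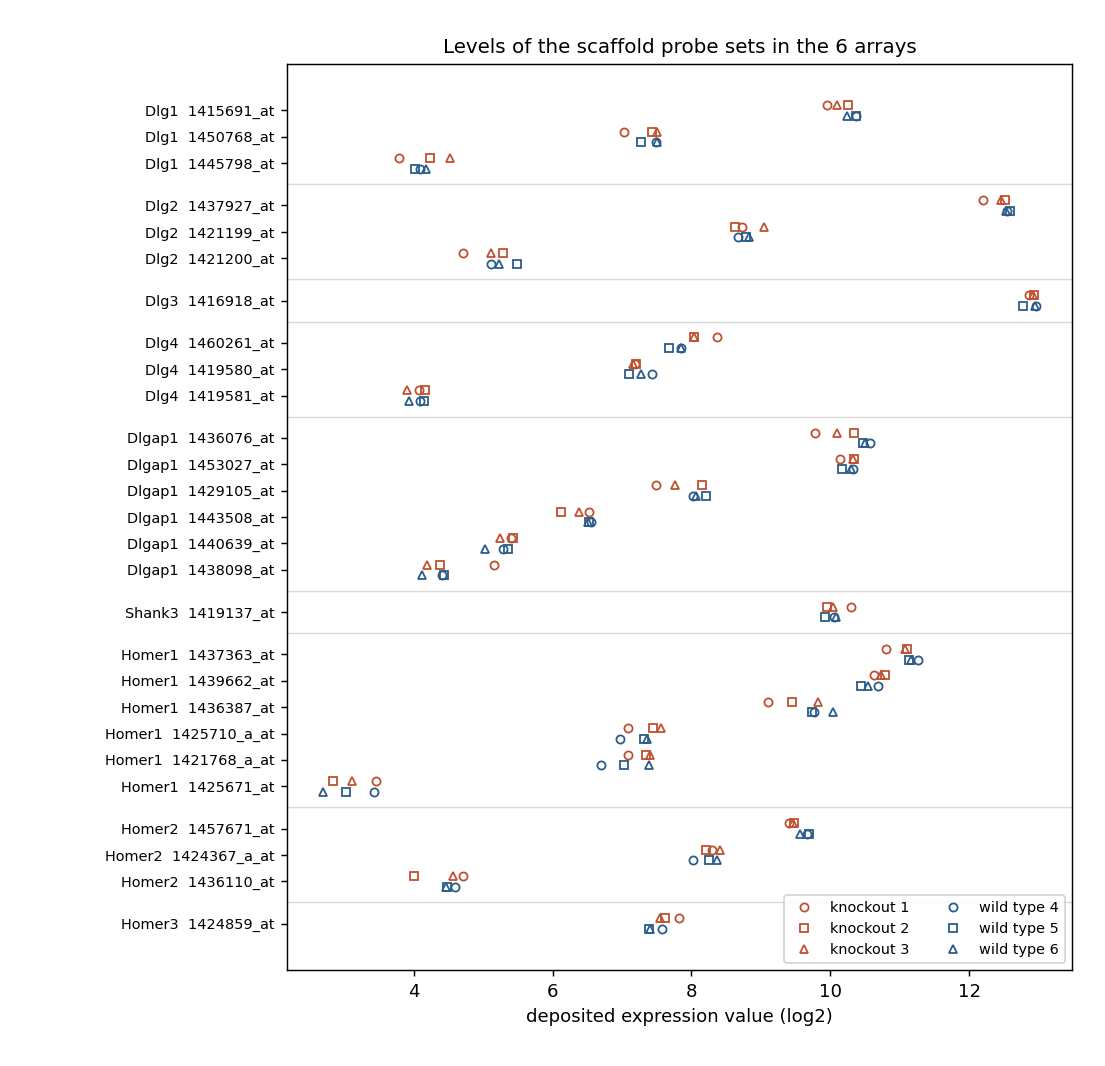
Deposited log2 expression values (horizontal axis) of the 27 scaffold probe sets, 1 row each, in the 3 knockout arrays (red) and the 3 wild-type arrays (blue). Levels of different probe sets are not comparable with one another, and within most rows the red and blue points intermingle.

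**Figure D2:**
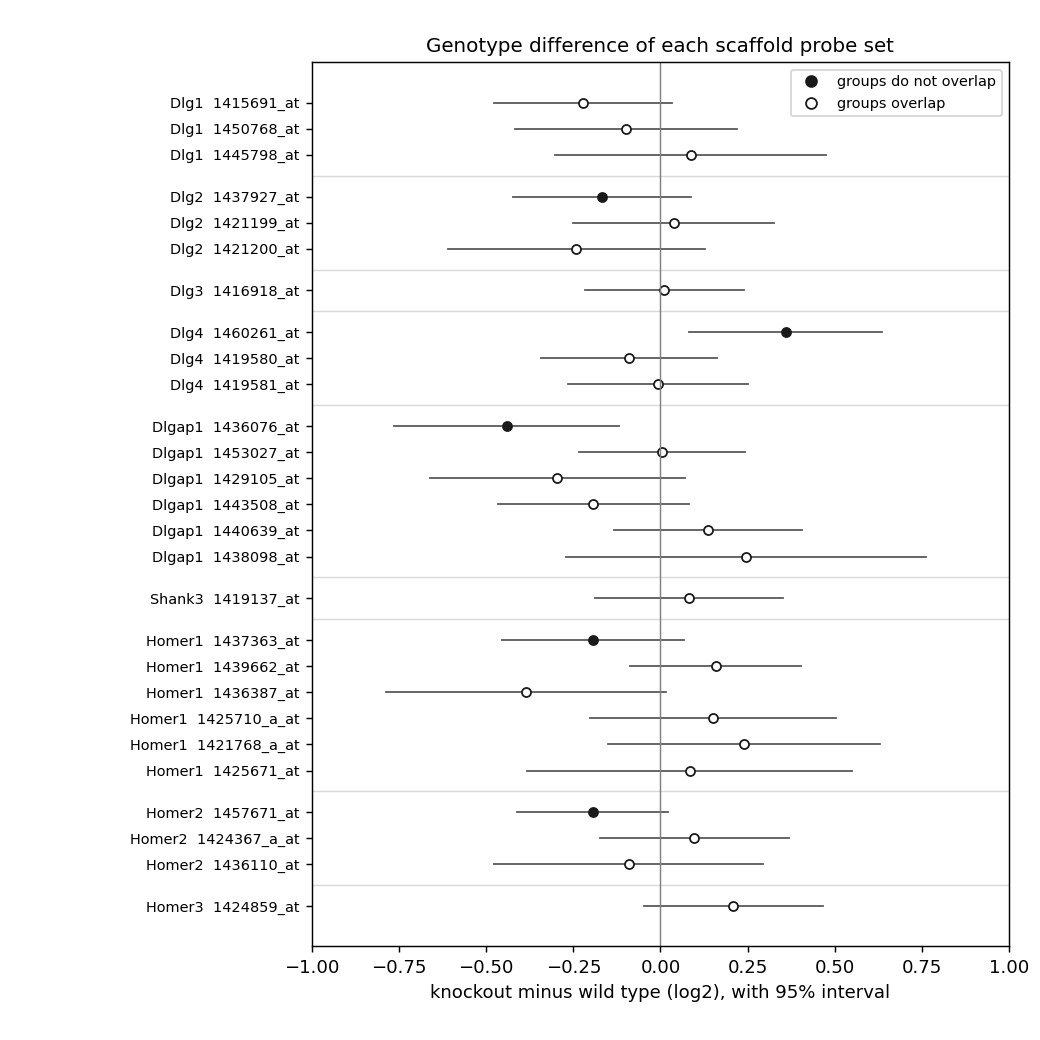
Knockout minus wild-type difference of each scaffold probe set on the log2 scale, with the 95% interval of the limma fit (3 arrays per group). Filled points mark the 5 probe sets whose groups do not overlap, 1 to the right of 0 and 4 to the left, and no interval reaches a 2-fold change.

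Among the PSD-95 family, only Dlg4 had a probe set that separated the groups upward. Dlg4 encodes PSD-95 itself, the most abundant scaffold of the mature excitatory synapse. Its brightest probe set, 1460261_at, gave 8.37, 8.04 and 8.04 in knockouts 1 to 3 against 7.84, 7.68 and 7.85 in wild types 4 to 6. Every knockout was above every wild type, and knockout 1 was the highest. The means were 8.15 ± 0.191 (SD, n = 3) and 7.79 ± 0.0927 (SD, n = 3), a difference of 0.36 ± 0.122 (SE), or 1.28-fold, with a limma adjusted p of 0.269. Without knockout 1 the difference was 0.25. The next Dlg4 probe set, 1419580_at, measured 7.18, 7.20 and 7.15 across the knockouts, compared with 7.43, 7.10 and 7.27 across the wild types, groups that overlap, with a difference of -0.09 (95% interval -0.34 to 0.16). The dim 1419581_at, at level percentile 29.4, differed by -0.01 (-0.27 to 0.25). Of the 27 scaffold probe sets, 1460261_at alone had all knockouts above all wild types.

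Dlg2, for PSD-93, the closest relative of PSD-95, had its brightest probe set lower in every knockout. On 1437927_at the knockouts read 12.19, 12.51 and 12.45 and the wild types 12.55, 12.58 and 12.53. The wild types lay within a very narrow range and knockout 1 was furthest below it. The difference was -0.17 ± 0.113 (limma adjusted p = 0.512), and -0.07 without knockout 1. The other Dlg2 probe sets differed by 0.04 (-0.25 to 0.33) on 1421199_at and by -0.24 (-0.61 to 0.13) on the dim 1421200_at, with overlapping groups on both.

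Dlg1, for SAP97, which also serves as a polarity scaffold outside neurons, did not separate the groups on any of its 3 probe sets. The brightest, 1415691_at, stood at 9.94, 10.26 and 10.10 in knockouts 1 to 3 and at 10.36, 10.37 and 10.24 in wild types 4 to 6, with knockout 2 just above wild type 6. Its difference was -0.22 ± 0.113 (limma adjusted p = 0.396), and -0.14 without knockout 1. On 1450768_at the difference was -0.10 (-0.42 to 0.22) and on the dim 1445798_at it was 0.09 (-0.30 to 0.48).

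The single Dlg3 probe set gave one of the narrowest intervals. Dlg3, on the X chromosome, encodes SAP102, the family member prominent in early postnatal synapses. It gave 12.86, 12.92 and 12.91 in knockouts 1 to 3 against 12.96, 12.76 and 12.94 in wild types 4 to 6, with wild type 5 the lowest of the 6. The difference was 0.01 (95% interval -0.22 to 0.24), which leaves room for less than a 1.5-fold change either way. Wild type 4, the array lowest for Xist, was the highest of the 6 on this X-linked gene. Wild type 6, high for Xist, read nearly the same (12.94 against 12.96).

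Dlgap1, encoding the linker SAPAP1 (GKAP), held the lowest difference of all 27 probe sets. On 1436076_at the knockouts read 9.78, 10.34 and 10.09 and the wild types 10.57, 10.47 and 10.50. Each knockout lay below each wild type, and the knockouts were spread over a range wider than the wild types. The knockout mean was 10.07 ± 0.282 (SD, n = 3) and the wild-type mean 10.51 ± 0.0511 (SD, n = 3). The difference of -0.44 ± 0.143 corresponds to 0.736 times the wild-type level, with a limma adjusted p of 0.258. Without knockout 1 it was -0.30. A second Dlgap1 probe set, 1453027_at, measured 10.14, 10.34 and 10.32 across the knockouts, compared with 10.32, 10.17 and 10.30 across the wild types, and the groups overlap fully. Its difference was 0.01 (95% interval -0.23 to 0.24). Of the 4 dimmer Dlgap1 probe sets, 1429105_at and 1443508_at were negative, at -0.30 and -0.19, while 1440639_at and 1438098_at were positive, at 0.14 and 0.25. Intervals of all 4 included 0. The 1429105_at value was -0.14 without knockout 1 and -0.47 without knockout 2, and the 1443508_at value was -0.08 without knockout 2. The positive value of 1438098_at came with knockout 1 at 5.16 and the other knockouts at 4.37 and 4.19, and it was -0.05 without knockout 1.

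Shank3, the scaffold that ties SAPAP to Homer and to the actin cytoskeleton, was read by 1 probe set. It stood at 10.30, 9.95 and 10.04 in knockouts 1 to 3 and at 10.05, 9.92 and 10.08 in wild types 4 to 6, and only knockout 1 lay above the wild-type range. The difference was 0.08 (95% interval -0.19 to 0.35; limma adjusted p = 0.785), and -0.02 without knockout 1.

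Homer1 probe sets pointed in both directions, 4 positive and 2 negative. The brightest, 1437363_at, gave 10.80, 11.11 and 11.08 in knockouts 1 to 3 against 11.26, 11.14 and 11.16 in wild types 4 to 6. All knockouts were lower than all wild types, by -0.19 ± 0.115 relative to wild type (limma adjusted p = 0.464). Without knockout 1 the value was -0.10. The next, 1439662_at, measured 10.63, 10.79 and 10.73 across the knockouts, compared with 10.69, 10.44 and 10.54 across the wild types, with wild type 4 inside the knockout range. It differed by 0.16 ± 0.108 (limma adjusted p = 0.521). The largest Homer1 difference in size was on 1436387_at, which stood at 9.10, 9.44 and 9.83 in knockouts 1 to 3 and at 9.76, 9.73 and 10.04 in wild types 4 to 6. Knockout 3 reached the wild-type range there, and the difference was -0.38 ± 0.178 (limma adjusted p = 0.360), or -0.21 without knockout 1.

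The remaining Homer1 probe sets were dimmer. Both with the suffix _a_at, which marks a design matching several transcripts of 1 gene, were positive. The 1425710_a_at probe set differed by 0.15 (-0.20 to 0.50) and 1421768_a_at by 0.24 (-0.15 to 0.63). On 1425671_at, at level percentile 12.7, the difference was 0.08 (-0.38 to 0.55). The sources used here do not say which of these probe sets reads the short Homer1a form, so long and short forms could not be compared.

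Homer2 and Homer3 encode the paralogues of Homer1, of which Homer3 is best known from cerebellar Purkinje cells. The brightest Homer2 probe set, 1457671_at, gave 9.40, 9.48 and 9.46 in knockouts 1 to 3 against 9.66, 9.69 and 9.56 in wild types 4 to 6. Both groups were tight and did not overlap. The difference was -0.19 ± 0.0963 (limma adjusted p = 0.387), and it stayed between -0.23 and -0.17 with any 1 array left out. The second, 1424367_a_at, read 8.30, 8.22 and 8.41 and 8.02, 8.26 and 8.36, overlapping groups that differed by 0.10 (-0.17 to 0.37), and the dim 1436110_at differed by -0.09 (-0.48 to 0.30).

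Homer3 measured 7.82, 7.62 and 7.55 across the knockouts, compared with 7.57, 7.39 and 7.40 across the wild types. Knockout 3 lay just below wild type 4, and the difference was 0.21 ± 0.113 (limma adjusted p = 0.423), or 0.13 without knockout 1. Of 6 cerebellar markers 5 were measured, 4 of them with a positive difference and 0 at an unadjusted limma p under 0.05. Their mean level ran from 7.05 to 7.33 in the knockouts and from 6.79 to 7.05 in the wild types. Cbln1, of smallest p among them, read 11.30, 10.90 and 10.78 in knockouts 1 to 3 and 10.75, 10.67 and 10.64 in wild types 4 to 6. The granule cell marker Gabra6 was dim at 2.80 to 3.54 in the 6 arrays, while the Purkinje cell marker Pcp2, named after its value was seen, read 8.51 to 8.73. Every knockout was above every wild type on Cbln1, Gabra6 and Pcp2, as at 12.5% of all probe sets. On the other measured cerebellar markers the groups overlapped. The part of the cerebellar markers in the Homer3 value was not tested.

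Probe sets of the same gene often differed in the sign of their genotype difference. The test compared the brightest probe set of a gene with each other probe set of that gene within each array, which made 18 pairs over 6 genes, and it was fitted over all 16752 such pairs on the array. No scaffold pair passed the limma adjusted threshold (smallest adjusted p = 0.219), where 0.0597% of all pairs did. At an unadjusted limma p under 0.05 there were 6 of 18 pairs (33.3%), against 14.9% of all pairs. The groups did not overlap at 7 of 18 (38.9%), against 22.0%. Both probe sets of a pair had opposite signs in 12 of 18 (66.7%), against 41.6%. Pairs of a gene share their brightest probe set, so these counts are not over independent values.

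Dlgap1, Dlg4 and Homer1 supplied all 6 of those pairs. For Dlgap1, the genotype difference of 1436076_at minus that of 1440639_at was -0.58 ± 0.175 (95% interval -0.97 to -0.18; limma adjusted p = 0.219). For 1436076_at minus 1453027_at the value was -0.45 ± 0.136 (limma adjusted p = 0.219), and -0.36 without knockout 1. Dlg4 had the opposite sign. Its brightest probe set exceeded 1419580_at by 0.45 ± 0.141 (0.13 to 0.77) and 1419581_at by 0.37 ± 0.158 (0.01 to 0.72) in its genotype difference. In Homer1, the difference of 1437363_at minus that of 1439662_at was -0.35 ± 0.123 (-0.63 to -0.08), and minus that of 1421768_a_at it was -0.43 ± 0.190 (-0.86 to -0.01). The sources used here do not place these probe sets on their transcripts.

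**Figure D3:**
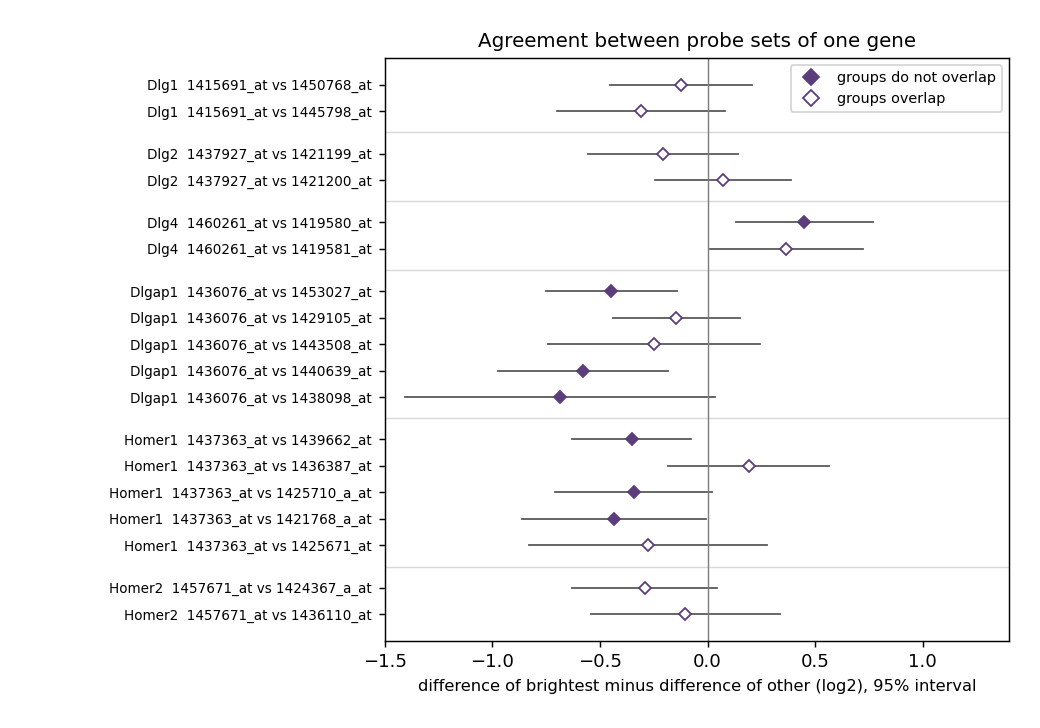
Genotype difference of the brightest probe set of a gene minus that of each other probe set of the gene (log2, 95% interval of the limma fit, 3 arrays per group). Filled diamonds mark the 7 of 18 pairs whose within-array values do not overlap between the groups, 6 of them in Dlgap1 and Homer1 to the left of 0.

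Read by the brightest probe set of each gene alone, 5 of the 9 genes were negative, Dlg1, Dlg2, Dlgap1, Homer1 and Homer2, and 4 were positive, Dlg3, Dlg4, Shank3 and Homer3, where 59.9% of all genes were positive. The median was -0.17, against 0.05 over 18193 genes and 0.01 over the 27 scaffold probe sets. The sign of the median thus changes with the choice of probe sets. Knockout 1 stood apart here too. It was the lowest of the 6 arrays at 11 of the 27 scaffold probe sets (40.7%), against 22.1% of all probe sets, and the highest at 6. Counting both sides, it lay outside the wild-type range at 66.7%, against 67.3% of all probe sets. For knockouts 2 and 3 these shares were 59.3% against 54.4% and 63.0% against 55.4%. Knockout 1 was also the array with the largest within-group deviation among the scaffold probe sets. Without it, the differences of 18 of the 27 scaffold probe sets changed sign or moved by over 1.5 times (66.7%), against 54.6% of all probe sets, and leaving out any other single array did so at 9 to 11 of 27. Among the brightest probe sets, those of Dlg1, Dlg2, Dlg4, Dlgap1, Homer1, Homer2 (-0.17) and Homer3 were smaller in size without knockout 1, that of Shank3 changed sign and that of Dlg3 was 0.03. Groups did not overlap at 10 of 27 without it (37.0%), against 28.7% of all probe sets with the same 5 arrays.

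**Figure D4:**
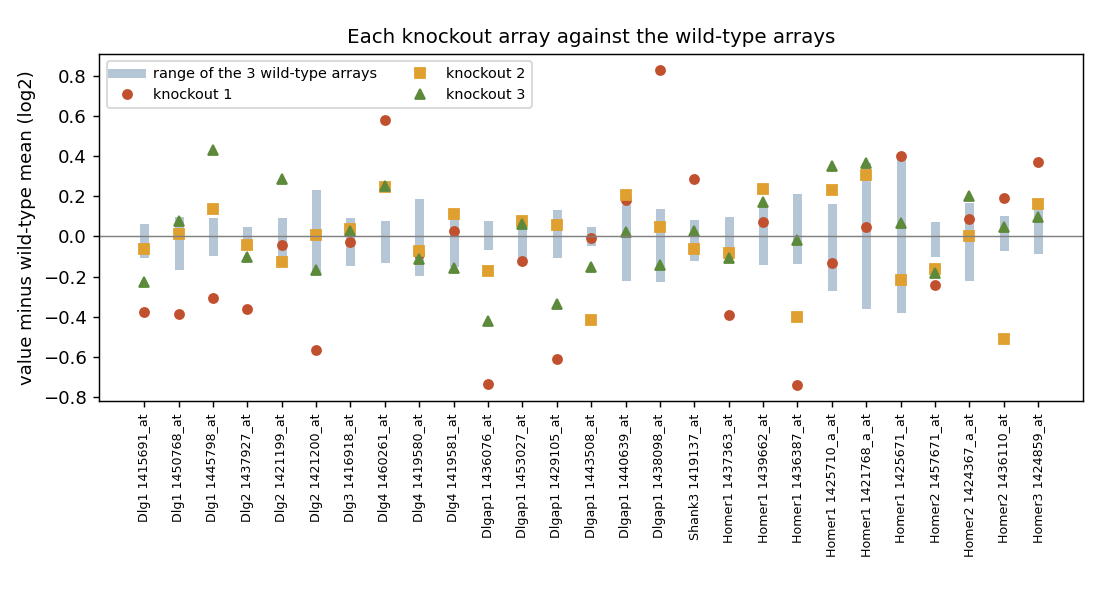
Value of each knockout array minus the wild-type mean (log2) at the 27 scaffold probe sets, with the range of the 3 wild-type arrays as a bar. Knockout 1 (circles) lies below the wild-type range at 11 probe sets (40.7%, against 28.8% of all probe sets), and knockouts 2 and 3 at 8 each (29.6%, against 24.8% and 24.7%).

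Other genes of the same machinery were read by the brightest probe set of each, and 0 of them passed the limma adjusted threshold, which 0.0220% of 18193 genes passed. At an unadjusted limma p under 0.05 lay 15.6% of all genes, 9.89% higher and 5.68% lower. Of 24 other scaffold genes measured, 1 was higher, the PDZ protein gene Lin7b (0.28 ± 0.114), and 1 lower, the spine regulator Sipa1l1 (-0.29 ± 0.112), with a median difference of 0.01. The SAPAP relative Dlgap4 differed by 0.28 ± 0.124. Of 19 measured genes listed as membrane partners of the PSD-95 family, whether or not they bind it directly, 2 were higher and 0 lower, with a median of 0.08. These were Cacng2, for the AMPA receptor auxiliary subunit stargazin (0.35 ± 0.104, limma adjusted p = 0.243), and the NMDA receptor subunit gene Grin2d (0.49 ± 0.177, limma adjusted p = 0.280). Another auxiliary subunit gene, Cacng8, differed by 0.20 ± 0.111.

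Partners of Homer and Shank had a median of -0.18, with 1 of 9 measured genes higher and 3 lower at that unadjusted level. Dbnl, for an actin-binding partner of Shank, differed by 0.30 ± 0.0922, the WAVE complex gene Abi1 by -0.37 ± 0.140 and the exchange factor gene Arhgef7 by -0.30 ± 0.122. The remaining one was the cortactin gene Cttn (-0.23 ± 0.0990), named after its value was seen. On Abi1, knockout 1 read 9.67 and the other knockouts 10.18 and 10.09, against 10.33 to 10.36 in the wild types. Of 11 kinases and signalling proteins of the postsynaptic density, 2 were higher, Fyn (0.26 ± 0.10) and Cdk5 (0.37 ± 0.148), and 0 lower. Camk2d differed by -0.19 ± 0.119.

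Activity-induced genes were counted because Homer1a belongs to them. Of 11 measured, 5 were higher at an unadjusted limma p under 0.05 and 0 lower, against 9.89% of genes higher at that level, and their median was 0.33. Ier2 differed by 0.43 ± 0.150, Fosb by 0.55 ± 0.195 and Egr4 by 0.36 ± 0.129, with limma adjusted p values of 0.272, 0.274 and 0.280. Npas4 and Nr4a1, the other 2, were named after their values were seen and differed by 0.38 ± 0.141 and 0.33 ± 0.143. Of the 11, 8 were positive and 3 negative. Also named after their values were seen, Egr2, Fos and Arc differed by 0.37 ± 0.185, 0.20 ± 0.170 and 0.06 ± 0.237. The negative ones were Egr1 (-0.02 ± 0.113), Junb (-0.07 ± 0.105) and Bdnf (-0.14 ± 0.138), with Egr1 bright at level percentile 98.2. Brain levels of Fosb, Egr4, Ier2 and Npas4 were low on these arrays, below 6 in every array. The relation of these values to those of Homer1 was not tested.

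Markers of cell types that hold or surround these synapses had differences of both signs. Neuronal markers were split, 5 positive and 5 negative with mean levels of 11.83 to 11.88 in the knockouts and 11.86 to 11.89 in the wild types. Snap25 (-0.33 ± 0.105) and Gad1 (-0.33 ± 0.118) were lower at an unadjusted limma p under 0.05, while Slc17a7, for the vesicular glutamate transporter of cortical excitatory terminals, differed by 0.27 ± 0.141. All 6 measured oligodendrocyte markers were negative, with mean levels of 10.60 to 11.08 in the knockouts and 10.93 to 11.27 in the wild types, and the lowest p belonged to Cldn11 (-0.59 ± 0.187). Astrocyte markers averaged 11.29 to 11.48 in the knockouts and 11.42 to 11.59 in the wild types. Of the 6 measured, 2 were lower at an unadjusted limma p under 0.05, Gja1 (-0.45 ± 0.105) and Slc1a3 (-0.28 ± 0.0980), and 1 was higher, Aldh1l1 (0.35 ± 0.133). Microglial markers averaged 8.18 to 8.33 and 8.04 to 8.13. Of these 6, 4 were positive and 2 negative. At that level 3 were higher, Aif1 (0.35 ± 0.0978), Csf1r (0.30 ± 0.102) and Cx3cr1 (0.35 ± 0.132), and 0 lower. The negative ones, named after their values were seen, were P2ry12 (-0.20 ± 0.114), with every knockout below every wild type, and C1qa (-0.08 ± 0.116). Endothelial markers were negative in 4 of 5, at mean levels of 7.46 to 7.65 and 7.51 to 7.88, and choroid plexus markers in 4 of 4, at 7.22 to 7.53 and 7.34 to 7.71, with Kl at -0.35 ± 0.135. Pituitary markers were positive in 6 of 6, at 4.54 to 7.46 in the knockouts and 4.43 to 5.35 in the wild types, with Lhb at 0.52 ± 0.212. Knockout 3 set the upper end of the knockout range. It read 10.62 for Gh against 5.08 and 4.67 in knockouts 1 and 2. Cga and Tshb, named after their values were seen, read 9.32 and 8.35 in knockout 3. In knockouts 1 and 2 they read 4.91 and 3.31 (Cga) and 5.24 and 5.31 (Tshb). The part of these cell types in the scaffold values was not tested.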

How the data were processed

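The authors deposited 1 table of normalized log2 expression values for 6 arrays, made with RMA and Partek (no version given) per the submitters' processing notes. They were used as deposited. RMA leaves dim signals at low values above 0 and makes no detection calls, and absence cannot be called. Of 45101 probe sets, 64 controls were left out. The platform annotation gave 1 gene for 34945, several for 932 and none listed for 9160. All 27 scaffold probe sets matched the RefSeq gene table of GRCm38.p6, used for names and chromosomes only.

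The genotypes were compared across all 45037 probe sets with limma 3.58.1 (lmFit, eBayes; R 4.3.3, statmod 1.5.0). Tests were two-sided, p-values were adjusted by Benjamini-Hochberg over the whole table, and 0.05 was the threshold. Degrees of freedom were 4 residual and 5.05 prior. The script was tested on simulated data. An exact permutation test of 3 against 3 arrays gives no p under 0.1, the value of all 5 probe sets whose groups do not overlap. Pairs of probe sets were fitted the same way on within-array differences. Beside the scaffold genes, 13 gene lists were read (122 of 133 genes measured), each gene by its probe set of highest mean. All scaffold probe sets are named, by the gene alone where a gene has 1. From each list up to 3 genes of smallest p could be named, besides Gnb5, Xist, Eif2s3y and Gh. Members and lists were chosen with earlier results of these data known. The design describes the replicates as biological; p-values measure the spread between these samples. Alternatives were filters, normalizations, variance models, array weights and arrays left out. No nucleotide or protein sequence was used. Figures were drawn with matplotlib 3.10.9.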

Additional observations from a re-analysis of the deposited data

How the results depend on the processing

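No paired analysis was possible because the labels do not match single knockouts to single wild types or give the litter of an array. Litter was therefore not part of the fit. Under the 16 alternative settings 0 scaffold probe sets were called, as with an adjusted p under 0.1, and the 406 values of single probe sets all stayed above the threshold (smallest adjusted p = 0.167). With the filters, 26 and 20 of the 27 remained. Signs were the same in all settings for 15 of 27 probe sets, and for 7 of the 9 brightest. With 1 array left out, 1 to 4 had an unadjusted p under 0.05 (1 without wild type 5, or 3.70% against 11.9% of all probe sets, and 4 without knockout 2, or 14.8% against 15.0%). Groups did not overlap at 7 to 10 (10 without knockout 1, or 37.0% against 28.7%, and 8 without knockout 3 or wild type 6, or 29.6% against 33.3% and 31.2%). With knockout 2 and wild type 4 both left out these numbers were 4 (14.8% against 10.5%) and 12 (44.4% against 45.3%), and with knockout 3 and wild type 6 left out 2 (7.41% against 11.1%) and 11 (40.7% against 43.6%). Trend and robust eBayes gave 4 at the unadjusted level (14.8% against 15.6%); the cause was not tested. The median difference lay between -0.08 and 0.03 with the 27 probe sets or those the filters kept, and was -0.17 with 1 probe set per gene, which reads 9 values. No pair of probe sets was called with any 1 array left out. Renormalizing moved the median over all probe sets from 0.03 to 0.00 at the lowest. Signals near background limit what the dim probe sets can show.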
